A study of Mus musculus with 6 samples.

Results

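The 9 genes described here encode transcription and chromatin factors of the pluripotent epiblast: the core factors Pou5f1 (Oct4), Sox2, Nanog and Sall4, the factors Otx2, Utf1 and Foxd3, and the zinc finger factors Zic2 and Zic5. They were taken by symbol from an RNA sequencing (RNA-seq) table of 24288 gene symbols, using for each symbol the RefSeq entry with the most reads. All 9 were found and all 9 were among the 17038 genes that passed the expression filter. The table compared day 2 epiblast-like cells (EpiLCs) of 2 genotypes, with 3 libraries each from independent differentiations. EpiLCs are cells obtained by moving mouse embryonic stem cells (ESCs) out of 2i/LIF medium, which holds the naive state, into medium with 12 ng/ml Fgf2 and 20 ng/ml activin A, here for 48 h. The wild-type (WT) cells were the CCE ESC line (129/Sv//Ev). The Smad2/3 DKO cells were the clone KT15.1F6 (129/Sv//Ev), made from Smad2 tm1Rob/tm1Rob ESCs by deletion of Smad3 exon 1 with a CRISPR nickase. Both genotypes received the same Fgf2 and activin A, and each was represented by 1 line, so the knockout and other differences between the lines cannot be told apart. RNA came from whole cultures, in which fewer cells of a type and less RNA per cell cannot be told apart. The p-values below measure the spread between differentiations of these lines.

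Pou5f1, Sox2 and Nanog are the central factors of the pluripotency network: Oct4 and Sox2 bind composite DNA elements together and maintain each other's genes, and Nanog stabilizes the naive state. When naive ESCs become EpiLCs, which resemble the early post-implantation epiblast in its formative state, Oct4 stays high and Otx2 redirects it to new enhancers, while Nanog is lowered for a time and the Zic genes are raised. Smad2 and Smad3 are the transcriptional effectors of Nodal and activin receptors, which signal in the epiblast. The comparison asks which of these factors were kept at their WT level when EpiLCs formed without both effectors.

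The windows upstream of 4 of the genes are shown because these genes cover the range of outcomes reported below: Sox2 was the most raised, Zic5 the most lowered, and Pou5f1 and Nanog stayed within 1.5-fold. Each is the 250 bases before a RefSeq transcription start in GRCm38.p6 (the mm10 assembly), 5′ to 3′ on the strand of the gene. Capitals mark the octamer core of POU factors (TTTGCAT), the core of Sox factors (ACAAT) and the Smad box (CAGAC), each on either strand.
Sox2, chr3:34649745-34649994 (+): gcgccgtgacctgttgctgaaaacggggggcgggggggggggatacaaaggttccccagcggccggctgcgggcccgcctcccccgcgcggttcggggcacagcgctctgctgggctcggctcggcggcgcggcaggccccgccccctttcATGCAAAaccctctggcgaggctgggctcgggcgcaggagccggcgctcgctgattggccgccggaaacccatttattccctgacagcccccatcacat
Nanog, chr6:122707239-122707488 (+): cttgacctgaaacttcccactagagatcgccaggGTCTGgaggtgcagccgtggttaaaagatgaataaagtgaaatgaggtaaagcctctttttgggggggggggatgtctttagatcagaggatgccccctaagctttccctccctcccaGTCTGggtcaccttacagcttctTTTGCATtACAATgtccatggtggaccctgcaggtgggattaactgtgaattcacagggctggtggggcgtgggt
Pou5f1, chr17:35505782-35506031 (+): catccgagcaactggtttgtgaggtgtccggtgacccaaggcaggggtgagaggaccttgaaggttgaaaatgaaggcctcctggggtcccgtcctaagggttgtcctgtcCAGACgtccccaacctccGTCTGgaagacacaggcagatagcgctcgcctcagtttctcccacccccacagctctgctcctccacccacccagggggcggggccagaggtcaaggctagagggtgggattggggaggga
Zic5, chr14:122465659-122465908 (-): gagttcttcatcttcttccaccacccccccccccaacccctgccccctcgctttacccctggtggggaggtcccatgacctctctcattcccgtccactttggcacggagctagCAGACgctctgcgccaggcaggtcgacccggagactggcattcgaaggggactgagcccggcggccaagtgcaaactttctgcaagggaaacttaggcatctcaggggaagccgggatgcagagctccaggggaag

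In the Nanog window the octamer core and the Sox core stand 1 base apart, from 75 to 63 bases upstream of the start at 122707489. That arrangement occurred in 8 of 32851 upstream windows of this length in the RefSeq table (0.0244%), and 2 of the 8 were the overlapping windows of the 2 Nanog starts. The Sox2 window held 1 octamer core, on the reverse strand, which 4.12% of all windows also held, and no Smad box. At least 1 Smad box was found in 42.2% of all windows. The windows of Pou5f1 and Nanog shown here held 2 copies each, and those of Zic5 and Utf1 held 1 copy each. The window of the other start of Pou5f1 and of Nanog held 1 copy each. The Foxd3 window held none of the motifs searched. These also covered an Otx core (TAATCC, 6.25% of windows), a Fox core (TGTTTA, 12% of windows) and a Zic core (CCTGCTG, 8.44% of windows). An Otx core, not marked above, lay in both Nanog windows, in the other Pou5f1 window and in 1 Otx2 window. A Sox core alone occurred in 27.7% of windows. Of the 9 genes, 7 had windows in the table, 12 windows in all, and Sall4 and Zic2 were without an entry. These matches describe letters only, and binding was not measured in these libraries.

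The targeted genes were read before the 9 factors. Smad3, whose product transmits Nodal and activin signals, fell from 839 ± 37.0 normalized reads in WT (SD, n = 3, here and below) to 23.6 ± 6.16 in DKO. Its log2 fold change was -5.12 ± 0.13 (SE; limma, adjusted p = 7.91e-22). Smad2 reads over the gene body were 4520 ± 86.3 in WT and 5062 ± 109 in DKO (log2 fold change 0.16 ± 0.03, limma, adjusted p = 2.27e-05), so the amount of Smad2 reads does not check the tm1Rob allele. The libraries held 57644143 to 63046034 reads in genes. The epiblast-like markers were present in both genotypes, with Dnmt3b at 70390 and 65421, Pou3f1 at 6064 and 3948, Fgf5 at 3235 and 798, and Otx2 at 3596 and 4219 normalized reads on average in WT and in DKO.

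Of the 9 factors, 6 held in Smad2/3 DKO EpiLCs, 2 were raised and 1 was lowered. A gene is said to hold when the whole 95% confidence interval of its fold change lay within 1.5-fold of WT, and to be called higher or lower when its Benjamini-Hochberg adjusted p over all 17038 genes was under 0.05 and its fold change was above 1.5. Pou5f1, Nanog, Otx2, Utf1, Foxd3 and Zic2 held, Sox2 and Sall4 were called higher, and Zic5 was called lower. Among all genes tested, 15.4% were called, 7.35% higher and 8.04% lower, and 64.7% held. Most of the factors are abundant, however, while Nanog and Zic5 lie near the middle of the genes tested. The means of the 9 ran from 570 to 21303, and 8207 genes lay in that wide range. Of these, 5.8% were called and 92.3% held. Set against the genes in that range, 3 called of 9 is the larger share and 6 held of 9 the smaller. The median absolute log2 fold change of the 9 was 0.32, against 0.12 for the genes in that range and 0.19 for all genes.

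**Figure D1:**
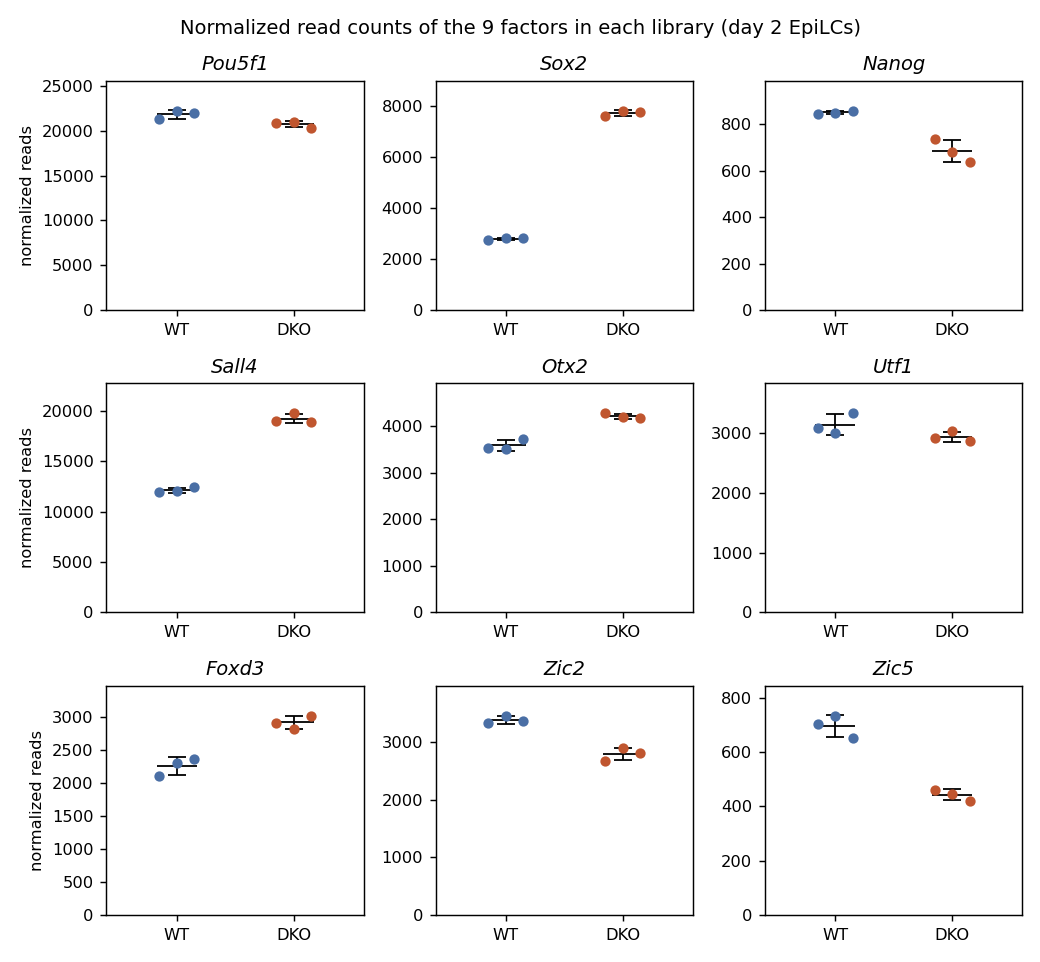
Normalized reads (linear axis from 0) of each factor in the 3 WT (blue) and 3 DKO (orange) libraries, with the mean and SD as black bars. Sox2 and Sall4 sit higher in all 3 DKO libraries, Zic5 sits lower, and in Utf1 alone of the 9 the values of the genotypes overlap.

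Holding did not mean that no difference was measured. All 9 factors had an adjusted p under 0.05, as did 53.4% of all genes, since replicates were close to each other. In 8 of the 9 the WT and DKO values did not overlap, 4 being higher and 4 lower in DKO, and the same was true of 59% of all genes. With the narrower limit of 1.2-fold for the interval, 2 factors held, Pou5f1 and Utf1.

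**Figure D2:**
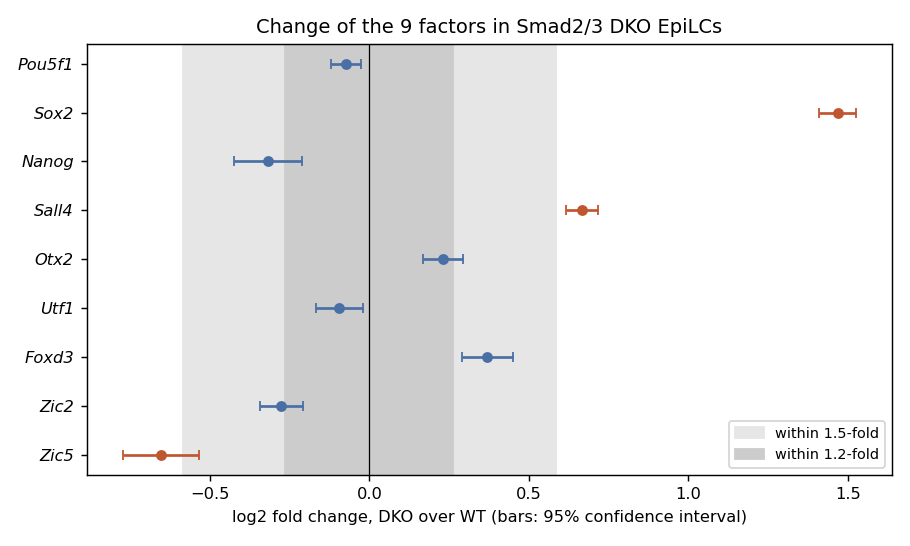
Log2 fold change of each factor, DKO over WT, with its 95% confidence interval from limma (n = 3 against 3), in blue where the interval lies within 1.5-fold (light band) and in orange where it does not. Sox2 stands apart at 1.47, Sall4 lies just outside the band, and the interval of Zic5 crosses its edge.

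Pou5f1 (NM_013633, chr17:35506032-35510777, + strand, 5 exons) encodes Oct4, the POU factor without which pluripotent cells are lost. It held 21291, 22245 and 22002 normalized reads in the WT libraries and 20870, 21036 and 20376 in the DKO libraries. Every DKO value was below every WT value, but the gap between the nearest libraries was small beside the level. The mean was 21846 ± 496 in WT and 20761 ± 344 in DKO, a fold of 0.950 (95% interval 0.920 to 0.982), with a log2 change of -0.07 ± 0.02 (SE, adjusted p = 0.00898 by limma). Without WT replicate 2, the highest WT library, the adjusted p was 0.0611. Reads that fell in the longer of the 2 RefSeq entries of Pou5f1 and outside the shorter entry, which starts at 35508807, went from 6642 ± 132 to 6380 ± 113 (ratio 0.961), and those in the shorter entry showed a ratio of 0.946. Both parts of the gene thus gave nearly the same value. The annotation places Gm19553 on the opposite strand within Pou5f1, and whether counting used strand is not given in the sources used here. Nor is the handling of reads that fit several places, which matters for Pou5f1 and Nanog because both have processed pseudogenes.

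Sox2 (NM_011443, chr3:34649995-34652461, + strand, 1 exon), the partner of Oct4 on composite elements, changed most. Its normalized reads were 2745, 2830 and 2818 in WT and 7617, 7826 and 7780 in DKO. The 3 libraries of each genotype lay close together, and the lowest DKO library was far above the highest WT library. The mean rose from 2798 ± 46.0 to 7741 ± 110, which was 2.77-fold (95% interval 2.66 to 2.88) or 1.47 ± 0.03 on the log2 scale (SE; limma, adjusted p = 3.16e-24). This log2 fold change lay at the 98.6th percentile of all genes tested. The rise also passed when tested against a change of 1.5-fold in place of 0 (limma, adjusted p = 1.94e-19).

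Sox2 lies inside Sox2ot, a long noncoding RNA gene read from the same strand, so reads cannot be assigned to either gene by strand. The Sox2ot entry held 2933 normalized reads in WT and 7982 in DKO on average, of which nearly all fell within Sox2. Outside Sox2 it held 125, 143 and 138 in WT and 221, 245 and 256 in DKO, without overlap. These reads, from the rest of the Sox2ot gene (chr3:34560381-34677993), were few beside those of Sox2, with a ratio of DKO to WT of 1.78. The 20 tested genes nearest to Sox2, 10 on each side, had a median log2 fold change of 0.05, ranged from -0.35 to 0.35, and 0 of them were called.

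Nanog (NM_028016, chr6:122707489-122714633, + strand), the homeobox factor of naive cells and of the primed posterior epiblast, held 845, 850 and 857 normalized reads in WT and 734, 680 and 638 in DKO. All DKO values were below all WT values, and they were more spread out, with a coefficient of variation of 7.03% against 0.740% in WT. Counting error alone, if reads are independent, is 2.85% in the library with the fewest Nanog reads. The WT figure lies below this, so the contrast is not a sound measure of a difference in spread. The mean was 851 ± 6.30 in WT and 684 ± 48.1 in DKO, a fold of 0.803 (95% interval 0.746 to 0.864) and a log2 change of -0.32 ± 0.05 (SE, adjusted p = 9.89e-06 by limma). The 4 RefSeq entries of Nanog held identical values.

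Sall4 (NM_175303, chr2:168748332-168767201, - strand, 4 exons), a zinc finger factor that works with Oct4 and Nanog, was the other factor called higher. Its normalized reads were 11897, 12014 and 12401 in WT and 19023, 19743 and 18866 in DKO, so that the genotypes were well separated. The mean rose from 12104 ± 264 to 19211 ± 468, 1.59-fold (95% interval 1.53 to 1.64) or 0.67 ± 0.02 on the log2 scale (SE; limma, adjusted p = 3.83e-18). Against a change of 1.5-fold the adjusted p was 0.0228 (limma). The antisense gene Gm14261 overlaps 1059 bases of Sall4 and was not among the entries analysed here.

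Otx2 (NM_001286481, chr14:48656781-48667644, - strand, 5 exons) is the homeobox factor that drives entry into the formative state. It held 3534, 3522 and 3731 normalized reads in WT and 4281, 4195 and 4181 in DKO. All 3 DKO libraries were above all WT libraries. The mean was 3596 ± 117 in WT and 4219 ± 53.8 in DKO, 1.17-fold (95% interval 1.12 to 1.23), with a log2 change of 0.23 ± 0.03 (SE, adjusted p = 3.42e-07 by limma). Otx2 has 4 RefSeq entries with 3 different sets of values. The reads of the entry used here that fell outside the entry with the fewest reads were few, 52.8 ± 2.60 in WT and 55.4 ± 3.44 in DKO.

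Utf1 (NM_009482, chr7:139943856-139945112, + strand, 2 exons), a chromatin-bound factor of pluripotent cells, was the factor for which the genotypes overlapped. Its normalized reads were 3095, 2999 and 3336 in WT and 2920, 3033 and 2877 in DKO, and the highest DKO library lay above the lowest WT library. The log2 fold change was -0.09 ± 0.04 (SE; limma, adjusted p = 0.0298), a fold of 0.937 (95% interval 0.890 to 0.986). The adjusted p rose to 0.244 without WT replicate 3, the highest library, to 0.0678 without DKO replicate 1, to 0.107 without DKO replicate 3 and to 0.0527 with no expression filter.

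Foxd3 (NM_010425, chr4:99656299-99658671, + strand, 1 exon), a forkhead factor that the epiblast needs to be maintained, held 2099, 2305 and 2369 normalized reads in WT and 2907, 2822 and 3016 in DKO. The genotypes did not overlap. The mean was 2258 ± 141 in WT and 2915 ± 97.1 in DKO, 1.29-fold (95% interval 1.22 to 1.37), with a log2 change of 0.37 ± 0.04 (SE, adjusted p = 8.77e-09 by limma).

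Zic2 and Zic5 are neighbours on chromosome 14, read in opposite directions, and Zic2 binds enhancers that become active as naive cells are primed. Zic2 (NM_009574, chr14:122475384-122480328, + strand, 3 exons) held 3328, 3454 and 3358 normalized reads in WT and 2674, 2891 and 2814 in DKO. Zic5 (NM_022987, chr14:122459160-122465658, - strand, 2 exons) held 705, 734 and 652 in WT and 460, 447 and 421 in DKO. In both genes every DKO library was below every WT library. The mean of Zic2 went from 3380 ± 65.9 to 2793 ± 110, a fold of 0.826 (95% interval 0.788 to 0.866) and a log2 change of -0.28 ± 0.03 (SE, adjusted p = 7.96e-08 by limma). The mean of Zic5 went from 697 ± 41.2 to 443 ± 19.5, a fold of 0.636 (95% interval 0.586 to 0.691) and a log2 change of -0.65 ± 0.06 (SE, adjusted p = 3.47e-10 by limma). Zic5 was thus lower by more than 1.5-fold while its interval still included smaller changes, and tested against a change of 1.5-fold its adjusted p was 1 (limma).

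The ratio of Zic2 to Zic5 within a library was 4.72, 4.71 and 5.15 in WT and 5.82, 6.47 and 6.68 in DKO. It was higher in all 3 DKO libraries, with means of 4.86 ± 0.25 and 6.32 ± 0.45 and a log2 difference of 0.38. The two-sided exact permutation test gave p = 0.1, the smallest that 3 against 3 libraries allow, so this design cannot pass 0.05 for a single ratio.

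The balance among the factors was examined as the ratio of each to Pou5f1 within the same library, which does not depend on the size factors and, being unscaled for length, is read between genotypes only. Sox2 reads per Pou5f1 read were 0.129, 0.127 and 0.128 in WT and 0.365, 0.372 and 0.382 in DKO. The ratio was nearly constant within a genotype and differed by 1.54 on the log2 scale. Sall4 went from 0.554 ± 0.012 to 0.925 ± 0.014, Otx2 from 0.165 ± 0.0057 to 0.203 ± 0.0033, and Foxd3 from 0.103 ± 0.0045 to 0.141 ± 0.0070. Relative to Pou5f1, Zic2 went from 0.155 ± 0.0019 to 0.135 ± 0.0056, Zic5 from 0.0319 ± 0.0020 to 0.0213 ± 0.00067 and Nanog from 0.0390 ± 0.00072 to 0.0329 ± 0.0020. Of the 8 ratios, 7 did not overlap between genotypes (two-sided exact permutation p = 0.1 each, the smallest possible, 0.114 after adjustment over the 8). Of the other 17037 genes tested, 59.7% had ratios to Pou5f1 that did not overlap. Utf1 kept no separation, at 0.144 ± 0.0085 in WT and 0.142 ± 0.0022 in DKO (exact permutation p = 0.7).

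**Figure D3:**
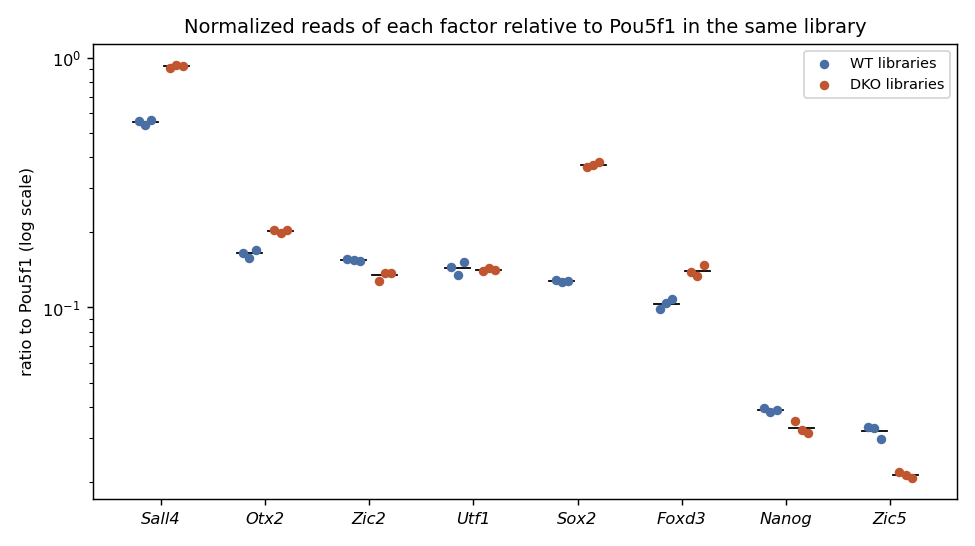
Normalized reads of the other 8 factors divided by those of Pou5f1 in the same library (log axis), for the 3 WT (blue) and 3 DKO (orange) libraries, with the mean as a black line. Sox2 moves from 0.128 to 0.373, and Utf1 is the ratio whose genotypes overlap.

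Levels were compared between genes per kb of transcript, with exon lengths from GENCODE. In WT, Pou5f1 stood highest at 16040 ± 364 normalized reads per kb. Utf1 (2562 ± 142) and Sall4 (2386 ± 52.1) followed, their SDs overlapping, and then Otx2 at 2105 ± 68.6. Zic2 (1385 ± 27.0) and Sox2 (1360 ± 22.4) were also not separated by their SDs. Foxd3 at 971 ± 60.7, Nanog at 385 ± 2.85 and Zic5 at 146 ± 8.64 were the lowest. In DKO, Pou5f1 remained first at 15243 ± 252, but Sall4 (3787 ± 92.2) and Sox2 (3763 ± 53.5) came next and lay within their SDs of each other. Otx2 (2470 ± 31.5) and Utf1 (2399 ± 65.9) followed within theirs, then Foxd3 at 1254 ± 41.8, Zic2 at 1145 ± 45.1, Nanog at 309 ± 21.7 and Zic5 at 92.9 ± 4.08. Reads were counted over gene bodies and may include introns, so genes with long introns are placed too high on this scale. Per kb of gene body the WT order was Pou5f1 (4603), Utf1 (2501), Sox2 (1134), Foxd3 (951), Zic2 (683), Sall4 (641), Otx2 (331), Nanog (119) and Zic5 (107). Pou5f1 was first and Nanog and Zic5 were last on both scales, whereas the places of Sall4, Otx2, Sox2 and Foxd3 depended on the scale. In DKO, Sox2 (3138) and Sall4 (1018) were well apart per kb of gene body.

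**Figure D4:**
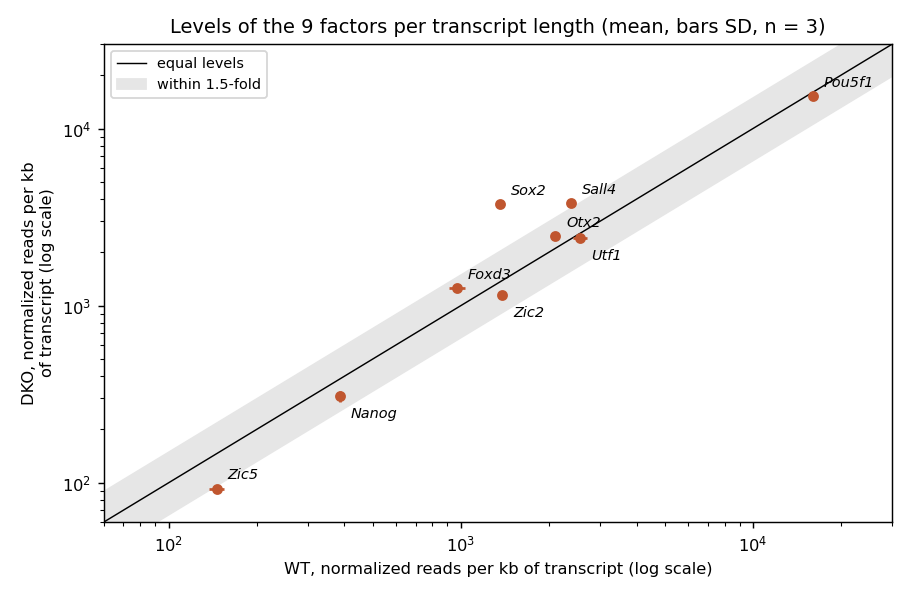
Level of each factor in DKO against WT, in normalized reads per kb of transcript (both axes log), as means with SD (n = 3) and the line marks equal levels and the band 1.5-fold. Sox2 lies furthest from the line, and Pou5f1 is the highest in both genotypes.

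Relatives of the 9 factors were counted in the same way. Of 17 paralogues, 13 were tested, 1 was called higher, 5 were called lower and 4 held. That is 46.2% called, where 15.4% of all genes tested were called and 64.7% held. Some paralogues had far fewer reads than the factors, so these counts are not matched for level. Their median log2 fold change was -0.17 against 0.00 for all genes. Among the Sox genes, Sox1 (log2 fold change -1.41), Sox15 (-1.25) and Sox3 (-0.82) were called lower, in the direction opposite to Sox2. Sox3 reads went from 585 ± 36.7 to 332 ± 25.7 (limma, adjusted p = 7.14e-11) and Sox1 reads from 90.7 ± 11.6 to 33.4 ± 3.44 (limma, adjusted p = 2.73e-08). The POU genes Pou3f1 (Oct6), a marker of the primed epiblast (-0.62), and Pou3f2 (-1.06) were called lower, while Pou2f1 was not called at 0.17. Sall3 was called higher at 1.92, from 245 ± 12.0 to 931 ± 61.1 reads, whereas Sall2 at 0.14 and Sall1 at -0.40 were not called. Otx1, Foxd1 and Zic1 had at most 14.6 normalized reads on average in either genotype. They were neither called nor held, their intervals being wide at so low a level. Crx, Foxd2, Foxd4 and Zic4 did not pass the filter.

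Of 18 cofactors of the core network, all tested, 16 held and 2 were called (11.1%). In the range of level of the 9 factors 92.3% of genes held and 5.8% were called, and over all genes 64.7% and 15.4%. Some cofactors, Arid3a among them, lay outside that range. Arid3a was called higher (log2 fold change 1.13) and Tcf7l1, a Wnt pathway repressor of pluripotency genes, lower (-0.76). Wdr5, a subunit of histone methyltransferase complexes, lay nearest to 0 at 0.04. The median of this list was 0.15. Of 14 other formative genes, 11 held, Rbpj was called higher (1.06) and Fgf5 (-2.02) and Cdh2 (-0.79) were called lower, with a median of -0.02. Etv5 lay nearest to 0 at 0.06. Naive factors had the opposite count, with 11 of 13 called higher, 0 lower and 2 held, and a median of 0.89. Nr5a2 was the highest of those with at least 100 reads at 2.14, and Gbx2 at -0.13 was the lowest. The median of the 9 factors, -0.07, lay below those of these 3 lists and above that of the paralogues. The study on these same libraries names part of the naive and formative lists, Pou3f1 of the paralogues and Gata3 of the trophoblast markers below. The counts of these lists are thus not independent evidence of a direction.

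**Figure D5:**
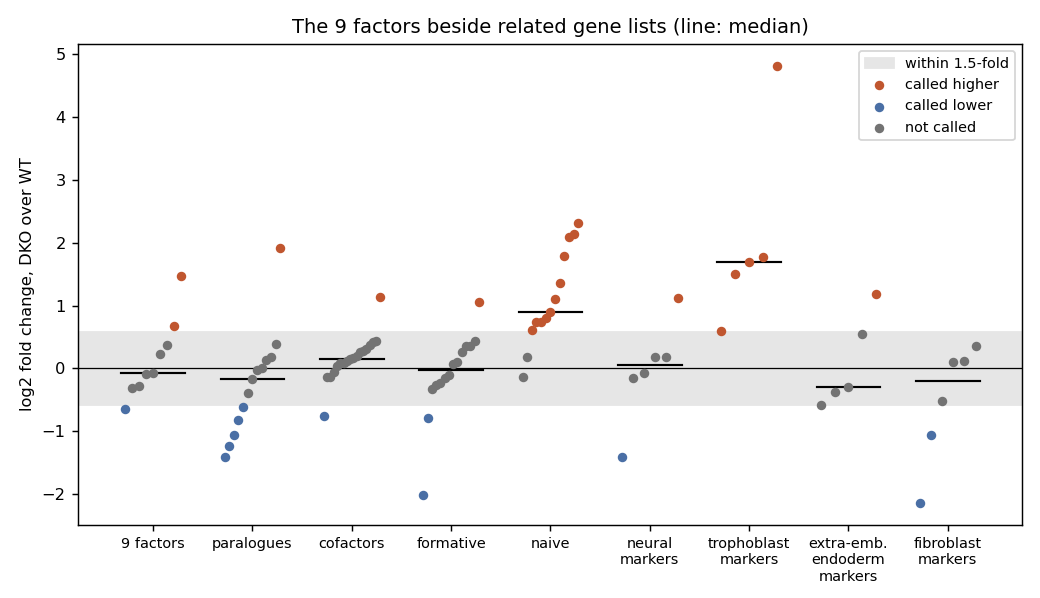
Log2 fold change, DKO over WT, of the tested genes of each list, 1 point per gene, coloured by whether it was called, with the median as a black line and 1.5-fold as a grey band. The 9 factors spread on both sides of 0, the naive factors lie almost all above the band, and cofactors almost all within it.

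The gene whose profile each factor most resembled was sought among 58 genes of the paralogue, cofactor, formative and naive lists. The measure was the smallest root mean square distance over the 6 libraries after subtracting each gene's WT mean (log2 scale). Libraries of a genotype lay close together, so this distance mainly restates how near the log2 fold changes of the genes were. Pou5f1 lay nearest to L1td1 (0.0258), Sall4 to Zfp42, also named Rex1 (0.0559), and Sox2 to Fbxo15 (0.0841), which was called higher at 1.37. Nanog lay nearest to Lin28b (0.0655), Zic2 to Tcf15 (0.0465) and Zic5 to Pou3f1 (0.0763). Otx2 lay nearest to Rif1 (0.0434) and Utf1 to Dnmt3b (0.0445). Sox2 had no near neighbour among the other 8 factors, the closest being Sall4 at 0.567.

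Markers of other cell types were read beside these results, since Sox2 is also a gene of neural progenitors and trophoblast stem cells. The neural markers summed to 1130 to 1139 normalized reads per library in WT and 1079 to 1135 in DKO, and of the 6 tested of 10, Pax6 was called higher (log2 fold change 1.12) and Sox1 lower. Tubb3 made up most of the neural sums, which without it were higher in DKO, at 365 to 379 in WT and 388 to 453 in DKO. All 5 trophoblast markers tested of 6 were called higher, Gata3, Cdx2, Tfap2a, Hand1 and Krt7, as were 7.35% of all genes. The list summed to 69.4 to 91.7 reads in WT and 278 to 324 in DKO, and without Gata3 to 67.2 to 87.6 and 171 to 211. Some levels were near the floor, with Hand1 at 6, 4 and 14 reads in WT and 38, 26 and 22 in DKO. Gata3 had 5, 4 and 9 reads in WT and 198, 215 and 246 in DKO. The call of Krt7 was lost without WT replicate 2 (limma, adjusted p = 0.102) or without DKO replicate 2 (0.123). Elf5, a defining trophoblast gene, was near 0, with 4 reads in 1 WT library and 6 in 1 DKO library. Of the extra-embryonic endoderm markers, 5 of 7 were tested and Gata6 was called higher, with sums of 60.2 to 90.7 in WT and 89.3 to 105 in DKO. Without Gata6 these sums were 45.1 to 75.7 in WT and 51.7 to 69.3 in DKO. Fibroblast markers summed to 1624 to 1689 in WT and 522 to 571 in DKO, and of the 6 tested of 8, Dcn (-2.14) and Col1a2 (-1.07) were called lower. Dcn made up most of these sums, which without it were 302 to 335 in WT and 219 to 255 in DKO. No marker was at 0 in all 6 libraries, while Ttr and Postn held at most 3 reads in each. The part of these cell types in the changes of the 9 factors was not tested.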

How the data were processed

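Total RNA of 6 EpiLC libraries was depleted of ribosomal RNA and sequenced paired-end from strand-specific libraries. The authors removed ribosomal reads with bowtie2, aligned to mm10 with STAR, dropped PCR duplicates by Samtools and took read counts across refGene gene bodies. Versions and the use of strand are not given in the sources used here. The deposited signal values are read counts divided by 1 DESeq2 size factor per library (1.76 to 1.93), unscaled for length. Whole reads were recovered for 100% of values (tolerance 0.1). The authors' comparison table (mean, log2 fold changes with errors and p-values) was not used.

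For each symbol the entry with the highest total was taken. The 138 rows without a symbol (0.517% of reads) were left out. Genes that passed filterByExpr (edgeR 4.0.16) entered limma 3.58.1 (R 4.3.3), fitted to log2(value + 1) and a variance trend, which understates changes of low genes. The planned test suited these normalized values. A call needed an adjusted p under 0.05 and a fold change above 1.5. Ratios were tested by exact permutation. Count tests with edgeR and DESeq2 1.42.0, other scalings, pseudocounts, filters and omitted libraries were alternatives. The fits were tested on simulated reads. Libraries of a genotype differed by 3.30 to 5.35 times the sampling variance, so none was a copy. Counting errors assume independent reads, which reads without molecular identifiers are not. Some low genes, such as Hand1 and Sox1, had even read counts in all 6 libraries. Whether both ends of a paired-end fragment were each counted is not given in the sources used here. If they were, the counting errors are understated, and low read counts stand for fewer fragments.

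The genes and lists were chosen with earlier results of these data known. Named genes are the 9 factors, Smad2 and Smad3, the paralogues, genes overlapping or next to a factor, and in each list the highest, lowest and nearest to 0 of those averaging 100 reads or more, plus the nearest profile to each factor. A result that this rule selects is not reported here. Other genes named (Dnmt3b, Pax6 and further cell type markers) come from the marker lists or were chosen after their values were seen.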

Additional observations from a re-analysis of the deposited data

How the results depend on the processing

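The 6 factors that held and the 3 that were called kept that status in all 17 fits, which included edgeR, DESeq2, voom, other scalings, pseudocounts, filters and each omitted library. No factor changed direction, and the median of all genes shifted by under 0.1 in each scaling. Holding was defined by a 1.5-fold limit, and with 1.2-fold 2 of the 9 held. The count of 2623 genes called fell to 1202 where only genes averaging 100 reads or more were tested, was 9098 without the fold limit and 1115 when tested against 1.5-fold. On the recovered reads edgeR called 2638 genes and DESeq2 2475. Without 1 library at a time the limma count ranged from 2513 to 2573. The ratio of Utf1 to Pou5f1 ranged from -0.0667 to 0.0180 on the log2 scale, and it turned positive without WT replicate 3. Extra-embryonic endoderm markers called ranged from 1 to 2, Gata4 being added without WT replicate 2 and Sox17 without DKO replicate 2, and trophoblast markers from 4 to 5. Same-numbered libraries did not deviate together (correlations 0.0088, -0.0293 and 0.0365 over 11930 genes) and were left unpaired. A replicate block gave 2602 called genes and 6 factors that held. Depth did not limit the factors, the lowest of which held 813 reads in a library.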

Other observations

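The genes next to the factors by annotation did not move with them in a fixed way. Nanog, which held, lies between Dppa3, a maternal and naive-state gene whose reads rose from 142 to 612 (log2 fold change 2.09), and Slc2a3, a glucose transporter whose reads rose from 3059 to 8518 (1.48), and both were called higher. Atp9a, a phospholipid transporter 5.96 kb from Sall4, was called higher at 0.69, close to the 0.67 of Sall4, while Zfp64 on the other side was not called at -0.13. On either side of Otx2, Tmem260 was called higher (0.62) and Otx2os1, 1.64 kb away, was not called (0.28, limma, adjusted p = 0.0599). Between Zic5 and Zic2 lies 2610035F20Rik, which went from 29.0 to 17.8 normalized reads and was called lower at -0.64. Pcca, 4.04 kb beyond Zic2, had 0.02, and Gm5089 beyond Zic5 had 0.09, neither called. The neighbours of Pou5f1 (Tcf19 at 0.08 and H2-Q10 at -0.49) and of Foxd3 (Atg4c at 0.405 and Alg6 at -0.002) were not called. Nor were those of Utf1, Kndc1 at 0.11 and Adam8 at 0.58. H2-Q10, Atg4c and Adam8 had an adjusted p under 0.05 (limma) and missed the fold limit, Adam8 narrowly.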
